A study of Mus musculus with 31 samples.

Results

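Hotspots private to the mouse strain 13R are places of meiotic DNA double-strand breaks called in 13R testis, with no hotspot centre of another strain examined under 400 bp away. They were taken from the autosomal part of the 13R hotspot list, as every hotspot whose centre lay 400 bp or more from each hotspot centre of B6, C3H, CAST, MOL, PWD and a Prdm9-/- mutant. Of 13850 autosomal 13R hotspots, 13283 met the rule, out of 414683 hotspots in all 26 lists. The median hotspot interval was 1859 bp wide in 13R, so a private hotspot can still overlap a hotspot interval of another strain. The break maps came from DMC1 SSDS, a chromatin immunoprecipitation that sequences the single-stranded DNA carrying the recombinase DMC1 at resected break ends. 13R is the inbred strain B10.F-H2pb1/(13R)J. It is the mother in 13RfXB6m and the father in B6fX13Rm, C3HfX13Rm, MOLfX13Rm and PWDfX13Rm, the 5 F1 hybrids with a 13R parent (f marks the mother, m the father). Another 14 F1 hybrids each joined 2 of the other strains, where PWD is PWD/PhJ, MOL is MOLF/EiJ, CAST is CAST/EiJ, C3H is C3H/HeJ and B6 is C57Bl/6J. The Prdm9-/- mice carried the tm1Ymat allele on a mixed B6;129P2 background. Each genotype had 1 library of testis and no replicate, so tests compare sets of hybrid lists. Many crosses have a parent in common, and the permutation tests treat them as independent.

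The members were chosen by where hotspots were called in 13R and in the 6 lists of the rule, so their absence from those lists is no finding. Presence and strength in the F1 lists were not used to choose them.

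In mice, PRDM9 places most meiotic hotspots. It binds DNA through an array of zinc fingers and methylates histone H3 on the nucleosomes around the bound site, where SPO11 then makes breaks. The zinc-finger array differs between strains, and a hybrid carries the allele of each parent. Hybrids therefore show where the breaks of a strain are made when a second allele and a second genome are in the same cell.

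The members filled almost the whole 13R map. The rule removed 159 13R hotspots for a centre near one of B6, 115 for MOL, 103 for C3H, 97 for the knockout, 92 for PWD and 83 for CAST, and 567 in all, since some were near several. Their 13R strength, a score deposited per hotspot and read here only within its own list, ran from 1.18 to 288. Members were divided by 13R strength into 10 classes of 1328 or 1329, from class 1 (weakest) to class 10 (strongest). The median interval width was 1176 bp in class 1 and 2903 bp in class 10. Just outside the 400 bp limit stood 109 removed hotspots at 300 to under 400 bp, with a median score of 21.5. Just inside it were 117 members at 400 to under 500 bp, with a median score of 16.8. Those members were present on average in 64.6% of the lists with a 13R parent and 3.97% of those without, and the removed ones in 74.3% and 15.1%.

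The promoters of Sptbn1, Vmn1r90 and Serpina11 show what the DNA under a member looks like, chosen because they hold the strongest members whose centre falls in a promoter window of a protein-coding gene. Each is printed 5′ to 3′ on the gene's strand from RefSeq (GRCm38.p6), from 250 bases before to 50 bases after the gene start. Capitals mark the 40 bases around the hotspot centre, and the letters are those of the reference genome, not of 13R.
Sptbn1, chr11:30219723-30220022, minus strand: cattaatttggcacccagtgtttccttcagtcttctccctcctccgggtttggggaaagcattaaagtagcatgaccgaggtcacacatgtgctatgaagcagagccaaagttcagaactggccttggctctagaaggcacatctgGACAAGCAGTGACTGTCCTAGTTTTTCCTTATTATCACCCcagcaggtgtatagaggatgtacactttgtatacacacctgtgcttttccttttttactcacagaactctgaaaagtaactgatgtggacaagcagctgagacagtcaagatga
Vmn1r90, chr7:14562122-14562421, minus strand: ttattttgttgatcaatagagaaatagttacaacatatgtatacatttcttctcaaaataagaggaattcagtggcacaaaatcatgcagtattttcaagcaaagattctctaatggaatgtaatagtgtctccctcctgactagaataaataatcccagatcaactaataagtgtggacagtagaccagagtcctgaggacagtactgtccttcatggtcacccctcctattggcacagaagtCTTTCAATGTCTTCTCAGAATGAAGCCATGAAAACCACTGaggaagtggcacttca
Serpina11, chr12:103989908-103990207, minus strand: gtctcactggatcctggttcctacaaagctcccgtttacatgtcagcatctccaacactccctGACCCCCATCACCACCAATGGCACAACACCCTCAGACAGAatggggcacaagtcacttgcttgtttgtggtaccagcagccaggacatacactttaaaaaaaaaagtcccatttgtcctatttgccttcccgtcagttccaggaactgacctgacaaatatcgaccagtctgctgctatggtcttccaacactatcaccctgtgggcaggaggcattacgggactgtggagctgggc

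The member at Sptbn1, a spectrin gene, was centred at position -84 from the gene start and ranked 931 among members. Its strength percentile was 96.2 in 13RfXB6m, 96.5 in B6fX13Rm, 95.1 in C3HfX13Rm, 88.7 in MOLfX13Rm and 88.0 in PWDfX13Rm, where 100 is the strongest autosomal hotspot of a list. The member at Vmn1r90, a vomeronasal receptor gene, stood 14 bp past the gene start, with percentiles between 70.8 and 92.9. At Serpina11, a serpin gene, the centre lay at -167 and percentiles ran from 80.0 to 90.2. None of the 3 was present in a list without a 13R parent. Of 12813 members searched, 23 had their centre in any of 31223 promoter windows. The windows are short, and the share for all autosomal 13R hotspots is not given, so the count shows nothing particular to members. The 23 members fell in 27 windows, since some windows overlap, and 8 of the 27 belonged to protein-coding genes. The 27 windows had a median GC content of 44.3%, against 53.0% for all windows.

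Each hybrid with a 13R parent held between 56.4% and 76.3% of the private hotspots, and no other hybrid held more than 0.271%. A member was counted as present when a hotspot of the list had its centre under 400 bp away. 13RfXB6m held 9369 members, 70.5% (95% Clopper-Pearson interval 69.8 to 71.3), beside 70.8% of all autosomal 13R hotspots. B6fX13Rm held 7698, 57.95% (57.1 to 58.8), beside 58.3% of all. C3HfX13Rm held the most, 10140 or 76.3% (75.6 to 77.1), beside 76.6% of all. MOLfX13Rm held 7493, 56.4% (55.6 to 57.3), beside 57.0% of all, and PWDfX13Rm 7486, 56.4% (55.5 to 57.2), beside 56.7% of all.

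In the lists without a 13R parent the counts ran from 7 to 36. There were 7 members in B6fXC3Hm (0.744% of all autosomal 13R hotspots were present there), 14 in CASTfXB6m (0.643%), 17 in B6fXCASTm (0.693%) and 17 in C3HfXB6m (0.989%). C3HfXCASTm held 18 (0.614% of all), B6fXMOLm 19 (0.671%), CASTfXMOLm 20 (0.801%), B6fXPWDm 23 (0.744%) and PWDfXMOLm 25 (0.794%). MOLfXB6m held 26 (0.881% of all), C3HfXMOLm 29 (0.895%), PWDfXB6m 32 (0.953%), PWDfXCASTm 35 (0.874%) and PWDfXC3Hm 36 (0.917%). As a share of members, these counts came to between 0.0527% and 0.271%.

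Presence averaged 63.5% ± 9.31 (SD, n = 5) in lists with a 13R parent and 0.171% ± 0.0627 (SD, n = 14) in lists without, a difference of 63.4 percentage points. The sets of lists did not overlap (two-sided exact permutation test over 19 lists, p = 8.6e-05, the smallest that 11628 arrangements give). The rule itself holds presence low in crosses without 13R, because members are by definition missing from the lists of their parents. With the strongest 5000 hotspots of every list the difference was 27.6 points.

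Matched hotspots also lay closer to the 13R centre in hybrids with a 13R parent. The median distance between centres was 43 bp in 13RfXB6m, 54 bp in B6fX13Rm, 41 bp in C3HfX13Rm, 50 bp in MOLfX13Rm and 51 bp in PWDfX13Rm, against 188 to 332 bp in the 14 other lists. The means were 47.8 ± 5.54 bp (SD, n = 5) and 245 ± 47.1 bp (SD, n = 14). This is a description with no test, because the rule sets part of it: members lie 400 bp or more from the centres of the parents of the 14 crosses, while a match lies under 400 bp away. Medians in those lists rest on 7 to 36 members each.

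Presence followed 13R strength steeply. Averaged over the 5 hybrids with a 13R parent, 9.04% ± 6.32 of class 1 was present (SD, n = 5), then 16.6%, 28.3%, 43.8%, 62.2% and 83.4% in classes 2 to 6, and 94.6%, 98.6%, 99.0% and 99.6% in classes 7 to 10. In class 10 the 5 lists lay between 99.1% and 99.85%, and in class 1 between 2.86% in B6fX13Rm and 19.3% in C3HfX13Rm. Lists without a 13R parent averaged 0.118% to 0.280% in every class. In each of the 10 classes the adjusted p-value was the smallest possible (two-sided exact permutation test, Benjamini-Hochberg adjusted p = 8.6e-05 in each). The rule holds presence low in lists without 13R in every class, so these 10 tests add no separate support.

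**Figure D1:**
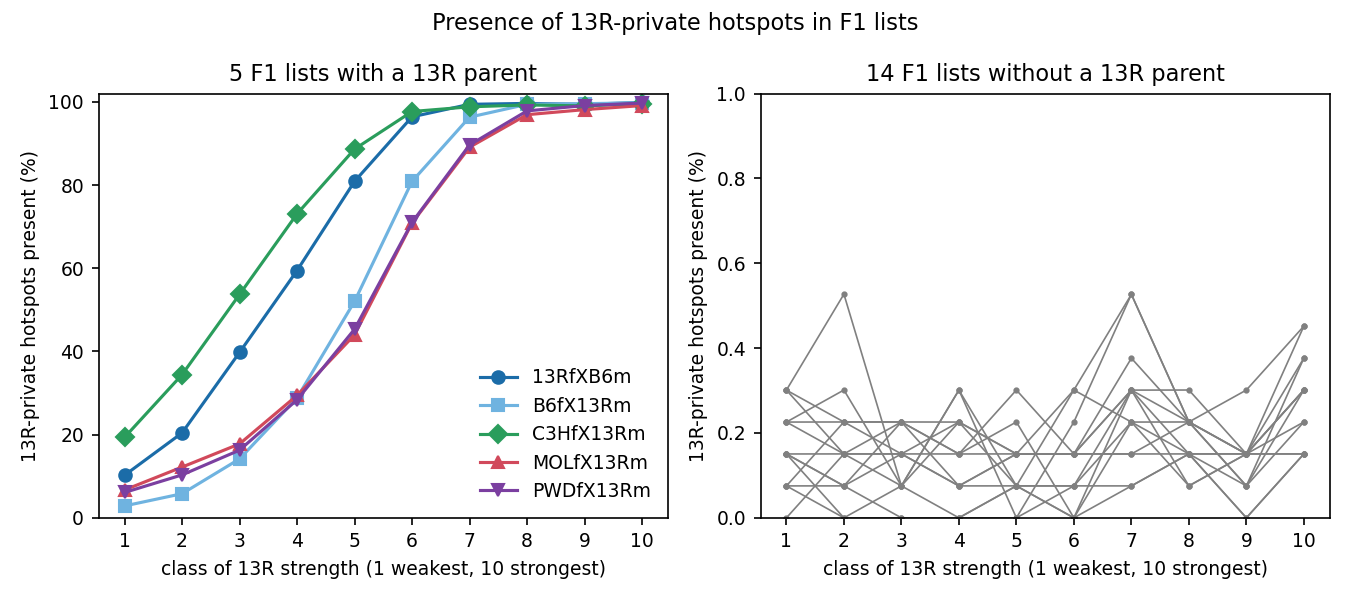
Percent of 13R-private hotspots present (vertical axis) by class of 13R strength (horizontal axis), 1 line per F1 list, with 5 lists with a 13R parent on the left and 14 without on the right, on axes of different scale. Lists with a 13R parent climb to between 99.1% and 99.85% in class 10, while lists without stay at or under 0.527% in every class.

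Class 10 exceeded class 1 by 90.6 ± 6.35 percentage points in lists with a 13R parent, in 5 of 5 lists (two-sided exact sign-flip permutation test, p = 0.063, the smallest that 5 lists allow). In lists without, the same difference was 0.108 ± 0.124 points, above 0 in 12 of 14 (exact sign-flip permutation test, p = 0.00452). That second call was lost with centres under 800 bp (p = 0.221), when the CAST list was dropped from the rule (p = 0.0778) and in the strongest 5000 hotspots of each list (p = 0.0630), all by the same exact permutation test. The size moved with the matching rule, to 2.26 points with any overlap of intervals and 0.689 with reciprocal overlap of 50% or more (exact permutation p = 0.000122 for both, the smallest possible). Class 10 intervals were wider, with a median of 2903 bp against 1176 bp in class 1. An effect of width was not tested. By centre, only 19 members of class 10 and 15 of class 1 were in any list without 13R. Class 10 members near Pfn2 and inside Sgms1 were in 9 and 7 of these lists. The lists are thus not independent, and the p-value counts such members repeatedly.

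Counted per hotspot, 6441 members (48.5%) were present in all 5 hybrids with a 13R parent, beside 48.7% of all autosomal 13R hotspots. Another 2677 (20.2%, beside 19.6% of all) were in none of the 5. In classes 6 to 10, 5737 of 6641 (86.4%) were in all 5 and 23 were in none. In classes 1 to 5, 704 (10.6%) were in all 5. Of the 2677 absent by their centre, 116 still overlapped a hotspot interval of at least 1 of these lists.

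The hybrids between 13R and B6 were made in both directions, and their members were nearly nested. Both lists held 7658 members (57.65%), 13RfXB6m alone held 1711 (12.9%) and B6fX13Rm alone held 40 (0.301%). The same counts over all autosomal 13R hotspots are not given. Members are 13283 of those 13850, so the pattern is not shown to be particular to them. The 1711 were weak, with a median 13R score of 14.1 against 28.2 for those in both, and a median percentile of 14.8 in 13RfXB6m. The 2 lists also differ in length, with 12448 autosomal hotspots in 13RfXB6m and 9748 in B6fX13Rm, so direction and list length cannot be told apart.

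Members made up most of the hybrid maps with B6, C3H and PWD and close to an even share with MOL. They were 75.3% of the autosomal hotspots of 13RfXB6m, 78.97% of B6fX13Rm, 67.7% of C3HfX13Rm, 48.0% of MOLfX13Rm and 57.8% of PWDfX13Rm. Of the summed autosomal strength they held 83.1%, 84.8%, 76.2%, 52.8% and 61.5% in the same order. Among the strongest 1000 hotspots of each list the shares were 89.9%, 90.5%, 84.2%, 61.2% and 66.7%.

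Strength was carried over as well, more closely in the hybrids with B6 and C3H. Across present members, Spearman's rho between the 13R score and the percentile in the hybrid was 0.926 in 13RfXB6m, 0.884 in B6fX13Rm, 0.893 in C3HfX13Rm, 0.757 in MOLfX13Rm and 0.770 in PWDfX13Rm. Among the 6441 members in all 5 hybrids, the percentiles of MOLfX13Rm and PWDfX13Rm correlated at rho 0.904, and those of 13RfXB6m and B6fX13Rm at 0.954. Each of MOLfX13Rm and PWDfX13Rm correlated with each hybrid with B6 or C3H at 0.841 to 0.863. These are descriptions across hotspots of single libraries, and the lists share the 13R parent.

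**Figure D2:**
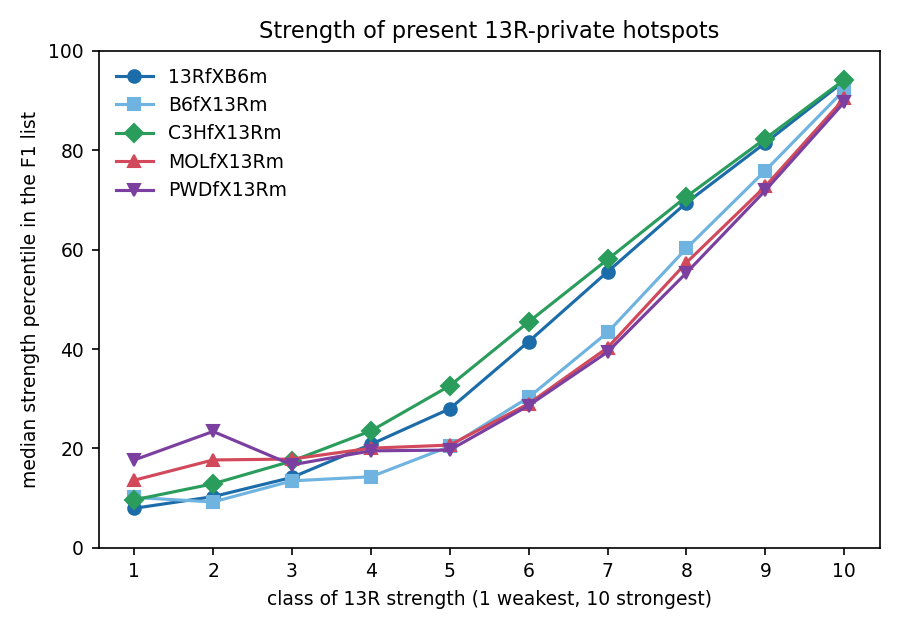
Median strength percentile within the F1 list (vertical axis) of the members present, by class of 13R strength (horizontal axis), 1 line per hybrid with a 13R parent. In class 10 the medians lie between 89.6 in PWDfX13Rm and 94.2 in C3HfX13Rm; from class 6 to class 10 MOLfX13Rm and PWDfX13Rm lie below the other 3.

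The median percentile of present members was 56.0 in 13RfXB6m, 54.7 in B6fX13Rm, 55.4 in C3HfX13Rm, 54.6 in MOLfX13Rm and 53.4 in PWDfX13Rm. It averaged 54.8 ± 1.01 (SD, n = 5) in these lists and 54.8 ± 12.2 (SD, n = 14) in lists without a 13R parent, where it ran from 23.5 in C3HfXB6m to 70.3 in MOLfXB6m. The difference of -0.0083 was smaller than the spread between lists (two-sided exact permutation test, p = 0.999). Members were 48.0% to 78.97% of the lists with a 13R parent, which limits how far their median can lie from the middle. In the lists without, each median rests on only 7 to 36 members. The test therefore cannot show whether members are equally strong in both sets of lists. The difference became -6.95 (exact permutation p = 8.6e-05) when any overlap of intervals counted as presence. With a reciprocal overlap of 50% or more it was -7.33 (exact permutation p = 0.00206). Under both overlap rules the match was the strongest overlapping hotspot of the list, and under the centre rule the nearest one. The percentiles are therefore not chosen alike, and the effect of this was not tested.

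Members were present more often than hotspots private to the other parent in each of the 5 hybrids. The latter were found by the same rule in that parent's own list, and both sets were looked for in the same hybrid list. The rule kept unlike parts of the lists: 13283 of 13850 autosomal hotspots for 13R, 12965 of 18130 for B6, 8827 of 13742 for C3H, 12220 of 14585 for MOL and 9904 of 13501 for PWD. The comparison thus sets almost the whole 13R map against the unshared part of another map. In 13RfXB6m the shares were 70.5% of members and 12.1% of the 12965 hotspots private to B6. In B6fX13Rm they were 57.95% and 7.52%. C3HfX13Rm held 76.3% of members and 24.1% of the 8827 hotspots private to C3H. MOLfX13Rm held 56.4% of members and 35.0% of the 12220 private to MOL, and PWDfX13Rm 56.4% of members and 14.7% of the 9904 private to PWD. The mean difference was 44.8 ± 14.4 percentage points (SD, n = 5; two-sided exact sign-flip permutation test, p = 0.063, the smallest that 5 crosses allow).

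The gap was narrow among the strongest hotspots with C3H and MOL. In class 10 of each set, C3HfX13Rm held 99.55% of members and 93.8% of hotspots private to C3H, and MOLfX13Rm 99.1% and 97.7% of those private to MOL. It remained wide with B6, at 99.85% of members and 77.6% of B6 hotspots in 13RfXB6m and 99.8% and 57.3% in B6fX13Rm, and with PWD, at 99.7% and 60%. Of all class 10 hotspots, absent ones included, 88.9% of members lay at or above percentile 75 of MOLfX13Rm, against 37.3% of those private to MOL. The same shares were 99.2% and 5.56% in 13RfXB6m. Among present class 10 hotspots the median percentile was 90.4 for members and 70.1 for hotspots private to MOL in MOLfX13Rm, and 93.9 and 40.03 for members and B6 hotspots in 13RfXB6m. The order was not the same in weak classes: in class 1 of MOLfX13Rm the medians were 13.6 for present members and 35.4 for present MOL hotspots.

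**Figure D3:**
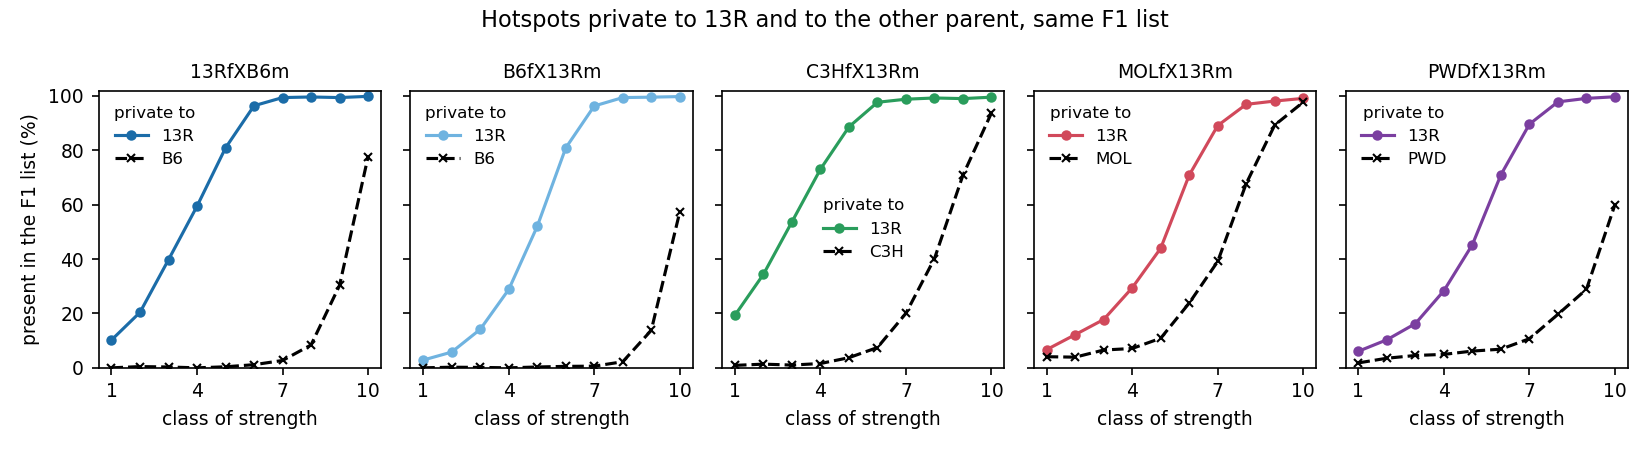
Percent present in the F1 list (vertical axis) by class of strength in the parent's own list (horizontal axis), 1 panel per hybrid, for hotspots private to 13R (solid, coloured) and private to the other parent (dashed, black). The solid line lies above the dashed one in every panel and class, with the smallest gap in class 10 in MOLfX13Rm, 99.1% against 97.7%.

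The 567 13R hotspots that the rule removed are no independent comparison, since in a cross with the strain they lie near, a hotspot of that strain alone counts as presence. Members minus removed hotspots came to -8.55 ± 2.67 percentage points (SD, n = 5), with members at 56.4% against 69.7% in MOLfX13Rm. The difference was -2.16 when privacy was set at 2000 bp.

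The 12 strongest members were in all 5 hybrids, each at percentile 97.8 or above in every one of these lists. The first, chr13:58176643-58178782, lies inside Ubqln1, which encodes a ubiquilin that brings ubiquitinated proteins to the proteasome. It had a 13R score of 288 and percentiles of 99.7 in 13RfXB6m, 99.9 in B6fX13Rm, 98.6 in C3HfX13Rm, 99.9 in MOLfX13Rm and 99.9 in PWDfX13Rm. It was also the strongest autosomal hotspot of C3HfXCASTm, at percentile 100, while the nearest centre of any other strain or the knockout was 13974 bp away.

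The next strongest, chr1:16303095-16306810 inside Stau2, a double-stranded RNA-binding protein gene, had a score of 228 and percentiles between 99.4 and 99.98. Next, on chromosome 3, was nearest to Ctso, a cathepsin gene, with a score of 190. After it, chr8:8219716-8223735, lay 395510 bp from Efnb2, an ephrin ligand gene, with percentiles of 99.88 to 99.99. The other 8 had scores from 153 to 172 and lay inside Wdr70, Adamts12 (a secreted metalloprotease), Pxk and Adgrl3 (a latrophilin adhesion receptor), or nearest to Chst10, Il20rb (a cytokine receptor chain), Itga4 (an integrin chain) and Sh3yl1. Of the 12, only the member in Ubqln1 was present in a list without a 13R parent. A gene name here gives a position, and gene activity was not measured.

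Strong members that no hybrid held were few. The strongest, chr7:12877938-12879311 near Zfp128, a zinc-finger gene, had a score of 87.7 and rank 241, and its nearest centre in the 5 hybrids was 21032 bp away, while a C3H centre lay at 847 bp. Those near Scoc (score 42.3) and Irs1 (38.7; the insulin receptor substrate), overlapped an interval in all 5 lists, with centres 639 to 1525 bp and 608 to 934 bp away. They count as absent by the centre rule alone. Those near Tcte2 (36.0) and Tmem68 (28.2) overlapped none of the 5.

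Some members differed in rank between partner strains. Among the 5737 members of classes 6 to 10 in all 5 hybrids, the mean percentile in MOLfX13Rm and PWDfX13Rm minus that in the 3 hybrids with B6 and C3H had a median of -8.14 points and ran from -52.2 to 88.4. It was above 0 for 986 (17.2%). With 2 hybrids against 3, no permutation test could pass, so these are values of single libraries. The percentiles are over all autosomal hotspots of a list, of which members made up 48.0% in MOLfX13Rm and 57.8% in PWDfX13Rm. In the 3 hybrids with B6 and C3H the share was 67.7% to 78.97%. An effect of these unlike shares was not tested.

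The largest rise was at chr9:118410677-118412892, nearest to Eomes, a T-box transcription factor gene. Its percentile was 99.1 in MOLfX13Rm and 99.0 in PWDfX13Rm, against 5.96 in 13RfXB6m, 3.76 in B6fX13Rm and 22.2 in C3HfX13Rm. The hotspot near Ankrd55 on chromosome 13 stood at 99.4 in MOLfX13Rm and 98.3 in PWDfX13Rm, against 18.7 to 30.8 in the others, and the one near Svil, a supervillin gene on chromosome 18, at 96.5 and 91.7 against 20.7 to 27.2. These 3 were picked for this difference, so the gap between the 2 groups of hybrids is no separate finding. None of the 3 was present in a list without a 13R parent.

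The largest fall was inside Clybl, a mitochondrial enzyme gene, at chr14:122288216-122290251. It stood at 1.42 in MOLfX13Rm and 3.33 in PWDfX13Rm, against 56.4 in 13RfXB6m, 52.6 in B6fX13Rm and 54.7 in C3HfX13Rm. Members inside Dscam, a neuronal adhesion molecule gene, and near Epha7, an ephrin receptor gene, had 2.26 and 6.39, and 11.7 and 1.03, in MOLfX13Rm and PWDfX13Rm. In the other 3 hybrids Dscam had 37.1 to 63.0 and Epha7 47.9 to 62.9. The 3 falls were picked by the same difference, so here too the gap between the groups follows from the choice.

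**Figure D4:**
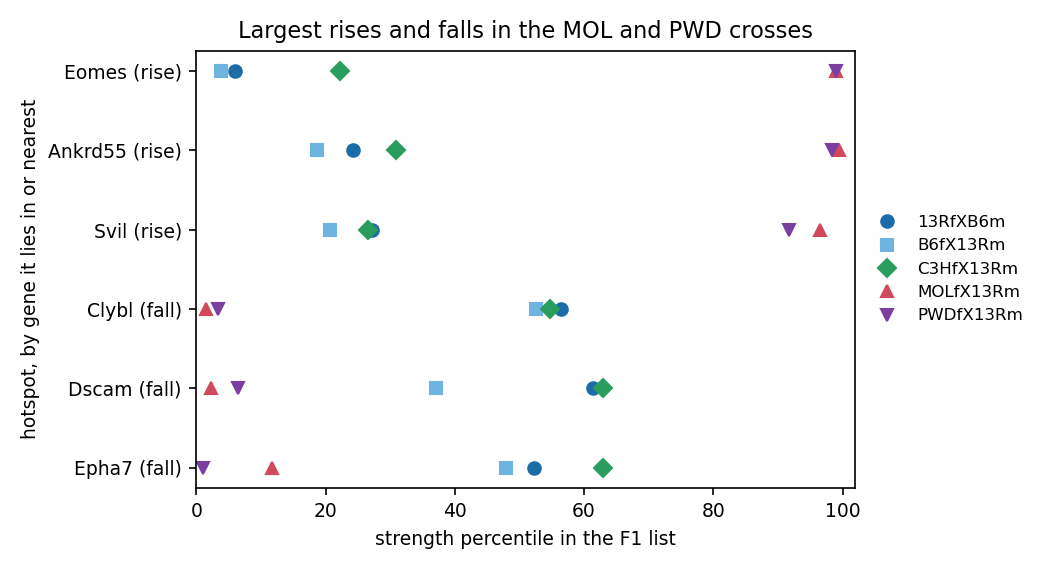
Strength percentile within the F1 list (horizontal axis) of the 3 members with the largest rise and the 3 with the largest fall in MOLfX13Rm and PWDfX13Rm relative to the hybrids with B6 and C3H, 1 symbol per hybrid. The rises put MOLfX13Rm and PWDfX13Rm at 91.7 or above and the other 3 hybrids at 30.8 or below; the falls put the first 2 at 11.7 or below and the other 3 at 37.1 or above.

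Changes of rank were also counted at both ends of 13R strength. These percentiles are over whole lists, in which members made up unlike shares, and an effect of this was not tested. Of the 3985 members in classes 1 to 3, 43 (1.08%) reached percentile 75 in MOLfX13Rm, 40 (1.00%) in PWDfX13Rm and 20 (0.502%) in C3HfX13Rm. None did in 13RfXB6m or B6fX13Rm. Of the 1328 in class 10, 156 (11.75%) were present but below percentile 75 in PWDfX13Rm and 135 (10.2%) in MOLfX13Rm, against 49 (3.69%) in B6fX13Rm, 9 in C3HfX13Rm and 9 in 13RfXB6m.

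The few members found without a 13R parent came to 144 (1.08%, beside 3.34% of all autosomal 13R hotspots) in at least 1 of the 14 lists, and 67 of them in 1 list only. Of the 144, 45 (31.3%) had a centre of another strain or the knockout under 1000 bp away, against 648 of the other 13139 members (4.93%). The member in most lists, chr3:58071624-58075451 nearest to Pfn2, a profilin gene, was in 9 of the 14. Its percentile there was 45.1 to 89.7, against 95.6 to 99.6 in the hybrids with 13R.

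A member near Zfpm1, a GATA cofactor gene, was in 8 lists without 13R, at percentiles of 60.8 to 87.4, and in the 5 with 13R at 50.1 to 70.3. Sgms1, a sphingomyelin synthase gene, had one in 7 lists without, at 2.55 to 54.9, and at 87.9 to 96.8 in the lists with 13R. Fndc3b had one in 7 lists without and Pex3, a peroxisome assembly gene, one in 6. The Pex3 member was absent from MOLfX13Rm and had a centre of B6 949 bp away.

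Most private hotspots lay inside genes, and few at gene ends, as in the whole 13R list and in every other inbred list. The centre was inside a protein-coding gene for 6922 members (52.1%, interval 51.3 to 53.0), beside 52.3% of all autosomal 13R hotspots and against 57.8% of the 567 removed ones (53.7 to 62.0). It was under 1000 bp from a gene end for 346 (2.61%, 2.34 to 2.89), beside 2.69% of all, and against 4.59% of the removed ones (3.02 to 6.65) and 33.0% (32.4 to 33.5) of autosomal hotspots in the Prdm9-/- list. Of autosomal hotspots in the B6, C3H, CAST, MOL and PWD lists, 51.0% (MOL) to 52.6% (CAST) lay inside genes. Under 1000 bp from a gene end lay 2.89% (C3H) to 3.8% (PWD). Inside genes lay 59.0% of class 10 members (56.3 to 61.6) and 51.2% of class 1 (48.4 to 53.9).

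Of 49 autosomal genes of meiotic prophase, 14 (28.6%) held a member, and of 23 spermatid genes 6 (26.1%), beside 21.1% of all 20665 autosomal protein-coding genes. Median gene length was 36182 bp for the first list, 10528 bp for the second and 17491 bp for all. Among axis and synapsis genes, Hormad2, which encodes a HORMA-domain protein of unsynapsed axes, held a member with a score of 72.5 and percentiles of 93.5 to 97.2 in the 5 hybrids. Stag3, a meiotic cohesin subunit, held one with a score of 62.4 and percentiles of 86.2 to 97.6. Sycp1, the transverse filament of the synaptonemal complex, held 2 members in all 5 hybrids, Sycp2 one in 3 of 5, and Majin, which attaches telomeres to the nuclear envelope, one in 5.

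Among genes for making breaks, Rec114 held 2 members in all 5 hybrids, the stronger at a score of 38.3, while the 3 in Mei4 scored 8.45 to 11.7 and were in at most 1 hybrid. Ankrd31 and Mei1 held one each, in 3 and 2 hybrids, and Gm960, the gene of the SPO11 partner TOPOVIBL, one in none. Of the genes for repair and crossing over, Ccnb1ip1 (HEI10) held a member with a score of 61.2 at percentiles of 85.0 to 90.7, and Hsf2bp, a BRCA2 partner, one with a score of 47.5 at 91.1 to 96.5 beside a weaker one. Ythdc2, needed for meiotic entry, held 2, in 5 and 0 hybrids.

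In the spermatid list, Tbpl1, a TBP-like factor, held a member with a score of 48.4 that was in all 5 hybrids at 83.3 to 92.3. The same gene held a weaker member, with a score of 18.3, in 2 of the 5. Spaca1, Zpbp and Acrv1, genes of acrosomal proteins, held members in all 5, and Odf2, a tail fibre gene, one in 1. The member in Acr, the acrosin gene, stood at 90.8 in MOLfX13Rm and 89.7 in PWDfX13Rm, against 21.9 in 13RfXB6m and 26.5 in C3HfX13Rm, and was absent from B6fX13Rm.

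Members were also looked for near 4 genes known from earlier recombination mapping. One lay in Tap1, within 10000 bp of Psmb9 on chromosome 17, with a score of 4.24, and was present in MOLfX13Rm alone. Another near H2-Eb1, a class II histocompatibility gene, had a score of 12.5 and was in none of the 5 hybrids. No member lay near Hlx. Esrrg, an orphan nuclear receptor gene, held 3 in all 5 hybrids, with scores of 17.9 to 29.7.

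By chromosome, presence differed from that on the other autosomes by several percentage points in places. On chromosome 16 the difference ran from 1.19 in C3HfX13Rm to 6.24 in MOLfX13Rm. On chromosome 17 it ran from -3.27 in PWDfX13Rm to 4.22 in MOLfX13Rm, and on chromosome 19 from -5.75 in C3HfX13Rm to 3.75 in MOLfX13Rm. Chromosome 9 was below the other autosomes in all 5, with differences of -6.25 to -4.17 percentage points. Chromosome 6 stood apart in C3HfX13Rm, where 83.5% of its 816 members were present, 7.58 points above the other autosomes. In the other 4 hybrids the same difference lay between -2.91 and 0.0127. The excess was largest between 60 and 130 Mb, a window chosen after seeing the data. There C3HfX13Rm held 88.3% of 376 members (84.6 to 91.4), against 49.7% to 67.6% in the other 4. The percentile of present members was above that in 13R by a median of 10.2 points in C3HfX13Rm, while the medians were -13.4 to -5.48 in the other 4. On the rest of chromosome 6 it was -3.55 in C3HfX13Rm.

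**Figure D5:**
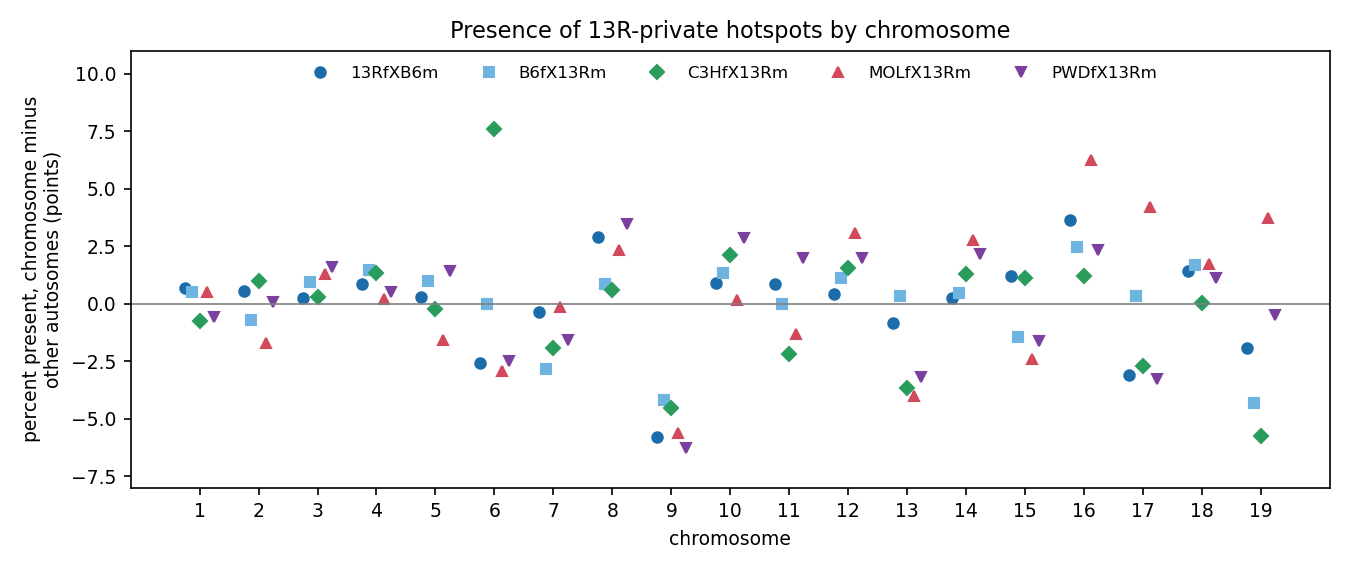
Percent of members present on a chromosome minus the percent on the other autosomes (vertical axis, percentage points) for each autosome (horizontal axis), 1 symbol per hybrid with a 13R parent. On chromosome 6 C3HfX13Rm lies at 7.58 and the other 4 between -2.91 and 0.0127; on chromosome 9 all 5 lie below 0.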

How the data were processed

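Testis DMC1 SSDS lists of 26 genotypes were used. The authors deposited 1 list per library, giving each hotspot a strength score. The submitters' processing notes name the mm10 build, MACS2 2.0.10 and CASAVA 1.8. How the score was normalized, and whether animals were pooled, is not given in the sources used here. Depth is unknown, so scores were compared only within a list, as percentiles over autosomal hotspots. The 5 input samples were not used. The series text says a sample was removed as wrongly labelled a CAST and 13R cross; its accession carries the label CAST in these data, so the rule was also run without that list.

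Members, gene lists and tests were chosen with earlier results of these data known. Intervals are exact Clopper-Pearson at 95% and cover counting error only. Tests were two-sided exact permutations over lists, at a threshold of 0.05, tested on simulated data first (Python 3.11.15, numpy 2.4.6, scipy 1.17.1, pandas 2.3.3, matplotlib 3.10.9). Whether the lists count from 0 or 1 is not stated; they were taken as BED-like, and starts are printed plus 1. Genes came from a RefSeq table of GRCm38.p6, the primary assembly of mm10. A hotspot was called by the gene holding its centre, otherwise by the nearest gene end. Named were the 12 strongest members, the 5 strongest absent from all 5 hybrids with 13R, the 5 in most lists without 13R, the 3 largest rises and 3 largest falls between partners, members within 10000 bp of 4 fixed genes, and genes of 2 lists; 1 gene that the rule names is not reported here. The 3 promoters, the centre distances and the chromosome 6 window and test were added after seeing the data. The planned count of motifs at member centres was not run, as no genome sequence was used. Alternatives changed the matching distance or overlap, the rule, the part of each list used and the lists included.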

Additional observations from a re-analysis of the deposited data

Results flagged for a closer look

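Presence of 13R-private hotspots on chromosome 6 in C3HfX13Rm was 7.58 percentage points above that on the other autosomes, far from the other 4 hybrids with a 13R parent, which lay between -2.91 and 0.0127. The gap to the nearest hybrid was 0.721 of the whole range, above the limit of 0.71 for 5 samples. It was the 1 group past the limit among 56 looked at, and chance flags about 1 group in 20. Each hybrid had 1 library, and a cause was not tested.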

How the results depend on the processing

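Of 90 alternatives over 6 results, 77 kept direction and side of the threshold. That count is no measure of stability. In 3 results, with 16 alternatives each, the side could not change, because so few lists cannot pass. Presence with against without a 13R parent kept both in 16 of 16, but the rule itself holds it low without 13R. The median percentile kept both in 6 of 16, and class 10 minus class 1 in lists without 13R in 7 of 10. Presence with minus without a 13R parent ran from 27.6 to 65.1 points (highest exact permutation p = 0.00147), class 10 minus class 1 in hybrids with 13R from 88.7 to 98.6, members minus the other parent's private hotspots from 23.7 to 52.0, and members minus removed 13R hotspots from -10.2 to -2.16; the last 3 cannot pass with 5 lists.

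The median percentile, with minus without a 13R parent, was near 0 and its sign was not stable. It cannot serve as a comparison of strength, because members make up a large share of the lists with a 13R parent. The difference was -6.95 with any overlap and -7.33 with reciprocal overlap of at least 50%, both past the threshold. It turned to 1.54 with centres under 800 bp, 1.05 with privacy at 2000 bp, 3.68 without the CAST list, 1.07 without the knockout list and 1.36 in the strongest 50% of each list. Leaving out 1 list gave -0.318 to 0.355, including 0.0265 without B6fX13Rm, 0.0531 without MOLfX13Rm and 0.355 without PWDfX13Rm. Class 10 minus class 1 in lists without 13R was 0.0920 with centres under 800 bp, 0.0591 without the CAST list and 0.0323 in the strongest 5000, none past the threshold. The cause was not tested in any of these. No pairing of animals was possible because each genotype had 1 library, and paired differences were taken only within a list. Depth is unknown, so absence from a list means only that no hotspot was called there.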

Other observations

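The chromosome 6 pattern in members was also looked for in all autosomal hotspots of the F1 lists, after it had been seen. Chromosome 6 held 7.82% ± 0.79 of autosomal strength in the 6 F1 lists with a C3H parent (SD, n = 6; 6.74% to 9.16%) and 5.38% ± 0.38 in the 13 without (SD, n = 13; 4.76% to 5.89%), with no overlap (two-sided exact permutation test, p = 3.69e-05, the smallest possible). C3HfX13Rm had the highest value, 9.16%, and PWDfXC3Hm the lowest of the 6, 6.74%. The inbred lists had 5.74% in C3H and 5.95% in 13R. The split by C3H parent was chosen after the pattern was seen in C3HfX13Rm, which is among the 6, and crosses share parents. The p-value is therefore no independent support. The lack of overlap did not rest on C3HfX13Rm, since PWDfXC3Hm at 6.74% also lay above 5.89%. A cause was not tested.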
